A study of Mus musculus with 82 samples.

Results

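The transcriptional change that followed when U46619 was added to EGF was measured in primary aortic vascular smooth muscle cells (aVSMC) of C57BL/6 mice after 48 h. The 2 groups of 5 cultures each were compared, EGF alone (10 µg/L) and EGF+U46619 (10 µg/L EGF with 1 µM U46619), which made 10 of the 82 RNA-seq libraries of the series. The same 5 culture sets had also been left without stimulus (Control) or given U46619 alone for 48 h, and the libraries of other cultures, from 6 mice, held the same 4 conditions at 24 h. All cultures had been kept for up to 7 passages in a growth medium with serum, insulin, hydrocortisone and EGF itself, and were then deprived of serum and supplements for 24 h before the stimuli, so that cultured and passaged cells are described and not intact aorta. The genes were all those outside chromosomes 9, X, Y and MT, 48326 of 55401, since the 7075 genes on those chromosomes were listed at 0 in every library.

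U46619 is a stable analog of thromboxane that activates the thromboxane receptor TP, encoded by Tbxa2r. TP couples to G proteins of the Gq and G12/13 families, raises intracellular calcium, and is known for vasoconstriction and platelet aggregation. EGF binds the receptor tyrosine kinase EGFR, which signals through RAS and ERK, and in vascular smooth muscle both receptors are known to act on growth, matrix production and contractile phenotype.

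Libraries held 23588049 to 32440996 counts in the EGF group and 21645685 to 32071067 in the EGF+U46619 group. Once group means were removed, cultures given different stimuli resembled each other more within a set than between sets. Every comparison was therefore made within sets. Smooth muscle markers differed widely between sets: Myh11, the smooth muscle myosin heavy chain, was at 55.1, 5.69, 187.3, 186.1 and 1.23 fragments per 1000000 counts (FPM) in EGF sets 1 to 5, and Acta2, smooth muscle alpha-actin, at 2618, 884, 3125, 6590.1 and 699.6 FPM. Library sizes behind FPM were scaled by TMM. Myocd, the coactivator of the contractile programme, reached at most 1.1 FPM, whereas Cnn1 and Tagln lie on chromosome 9 and were listed at 0. Set 1 held the highest endothelial markers, with Pecam1 at 494 FPM under EGF and 462 FPM under EGF+U46619, and set 5, in which Myh11 was nearly absent, held the highest epithelial keratin Krt19, at 156.2 and 160.7 FPM. Acta2 was thus high in all sets and Myh11 mainly in sets 1, 3 and 4. In EGF sets 2 and 5 Smtn was at 52.9 and 52.8 FPM and Lmod1 at 29.9 and 22.8 FPM. Synpo2 was at 5.53 and 1.47 FPM there. Sets 2 and 5, with the lowest Myh11, were left out in an alternative chosen after these values were seen.

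Addition of U46619 to EGF changed the levels of 2019 genes of 14634 tested (13.8%), of which 997 rose (6.81%) and 1022 fell (6.98%). A gene was called differentially expressed (DEG) when its false discovery rate, the Benjamini-Hochberg adjusted p, was below 0.05 in both edgeR and DESeq2 and its mean reached 5 FPM in a compared group. The changes were mostly small: the median size over the DEG was 1.35-fold, 204 genes changed more than 2-fold, 51 of them upwards, and 4 rose and 19 fell more than 4-fold. In 1794 of the DEG all 5 sets moved the same way. Most DEG (1912) were protein-coding genes and 78 were pseudogenes, for which multimapping reads had been counted. The count was 1246 without set 1, 1034 without set 3 and 1265 without set 4, and 797 with the mouse number of the labels, the same for sets 1 and 4, in place of the set. Without the sets lowest in Myh11 (2 and 5) it was 1575.

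**Figure D1:**
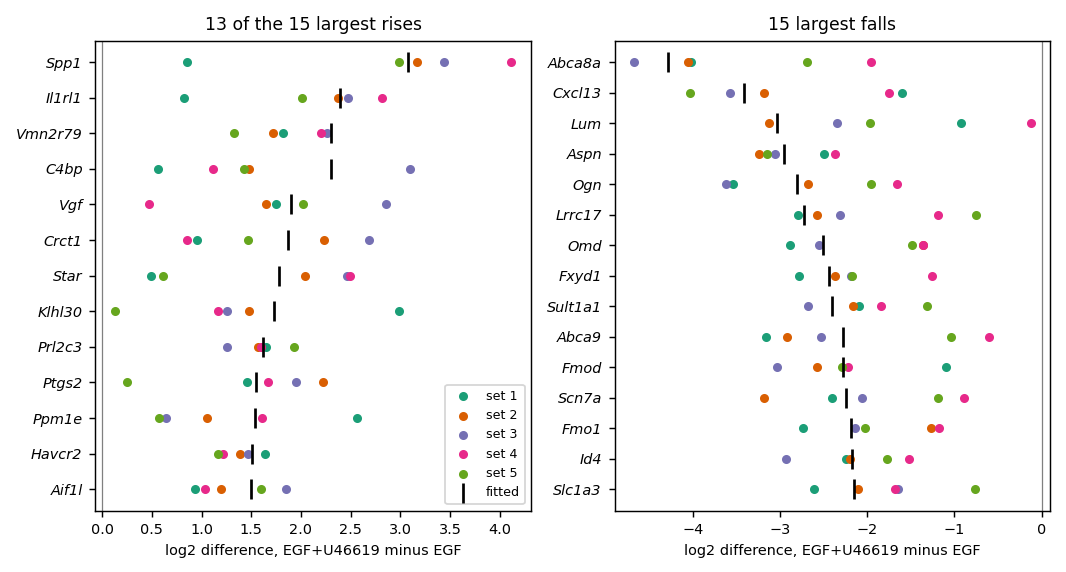
Difference between EGF+U46619 and EGF in each of the 5 culture sets, on the scale log2(FPM + 0.5), for 13 of the 15 genes with the largest rise (left) and the 15 with the largest fall (right) among DEG that moved the same way in all sets. Coloured points are sets and the black mark is the log2 fold change of edgeR, which runs from 1.498 to 3.07 on the left and from -2.15 to -4.28 on the right, and no point crosses 0.

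The largest rise was that of Spp1, which encodes osteopontin, a secreted phosphoprotein of bone, inflammation and vascular calcification, and lies at chr5:104435118-104441050 (GRCm38, as are all positions). Its level was 76.8, 122, 64.4, 58.9 and 109 FPM in EGF sets 1 to 5 and 139, 1104, 706, 1030.2 and 869 FPM in the EGF+U46619 cultures of the same sets. The groups did not overlap, but set 1 rose far less than the other 4. The log2 fold change (log2FC, with its standard error from edgeR throughout) was 3.07 ± 0.41, an 8.43-fold rise (adjusted p = 0.000106, edgeR). Il1rl1, the receptor of interleukin-33, stood at 0.451, 5.09, 2.83, 4.38 and 13.3 FPM under EGF and at 1.19, 28.5, 17.9, 33.9 and 55.2 FPM under EGF+U46619, with set 1 lowest in both groups and set 5 highest, so that the groups overlapped although each set rose (log2FC 2.40 ± 0.28, edgeR adjusted p = 4.1e-05).

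Ptgs2, the inducible cyclooxygenase that makes the precursor of all prostanoids, was at 9.33, 8.67, 10.1, 11.4 and 74.2 FPM under EGF and 26.4, 42.2, 40.2, 37.1 and 88.2 FPM under EGF+U46619. Set 5 started high and rose least, and the other 4 sets rose from about the same low level (log2FC 1.55 ± 0.22, edgeR adjusted p = 0.000151). Prl2c3, of the proliferin family of prolactin-like hormones, rose in all sets by log2FC 1.62 ± 0.13, but shares reads with near-identical family members and is uncertain as a single gene. Further large rises were those of Vgf, a secreted neuropeptide precursor (1.90 ± 0.34), Star, which carries cholesterol into mitochondria (1.78 ± 0.33), and Havcr2, an immune receptor also called TIM-3 (1.51 ± 0.15). Vmn2r79, a member of a large vomeronasal receptor family, was fitted at 2.30 ± 0.28, from a mean of 1.28 to one of 6.22 FPM, and is uncertain for the same reason. C4bp, a complement regulator, was at 2.30 ± 0.32 (not called without set 5, 2.79), and Ppm1e, a protein phosphatase, at 1.53 ± 0.31 (not called without set 1, 1.17). Crct1, Klhl30 and Aif1l were at 1.87, 1.73 and 1.498.

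The largest fall was that of Abca8a (chr11:110025634-110095978), a transporter of the ABCA family that exports lipids. It was at 10.7, 18.2, 35.4, 2.28 and 25.5 FPM under EGF and at 0.19, 0.623, 0.91, 0.217 and 3.55 FPM under EGF+U46619. All sets fell, and only set 5 stayed above 1 FPM with U46619. The log2FC was -4.28 ± 0.40, a 19.5-fold lower level (edgeR adjusted p = 1.08e-05). Aspn, which encodes asporin, a leucine-rich proteoglycan that binds collagen, fell from 129, 63.3, 49.9, 27.6 and 4.99 to 22.4, 6.23, 5.53, 4.92 and 0.12 FPM over sets 1 to 5 and had the smallest adjusted p of all genes (log2FC -2.96 ± 0.19, edgeR adjusted p = 2.01e-07). The sets kept their order in both groups, with set 1 highest and set 5 lowest. Ogn, which encodes osteoglycin, another proteoglycan of this family, was at 161.4, 50.8, 84.9, 26.1 and 25.2 FPM under EGF and 13.4, 7.47, 6.44, 7.93 and 6.10 FPM under EGF+U46619. The groups did not overlap and the 5 cultures with U46619 lay close together (log2FC -2.81 ± 0.38, edgeR adjusted p = 0.000124). Omd (osteomodulin, -2.50 ± 0.31) and Scn7a, a sodium channel (-2.25 ± 0.31), did not overlap between the groups either, and Omd was not called without set 1 (-2.26). Cxcl13, a chemokine for B cells, fell from between 1.92 and 18.9 FPM to at most 4.79 FPM (-3.41 ± 0.44). Lum, which encodes the proteoglycan lumican, fell (log2FC -3.03 ± 0.44; not called without set 2, -2.70, or set 5, -3.25), from a mean of 5.26 FPM near the limit of 5 FPM, and Lrrc17 (-2.73 ± 0.27) was not called without set 2 (-2.70). Id4, an inhibitor of helix-loop-helix factors, fell in all sets, from a mean of 56.3 ± 37.2 to one of 11.8 ± 7.24 FPM (SD, n = 5; log2FC -2.17 ± 0.21). The other members of this group were Fxyd1, a regulator of the sodium pump (-2.44), the sulfotransferase Sult1a1 (-2.41), the transporter Abca9 (-2.28), the proteoglycan Fmod (-2.28), the monooxygenase Fmo1 (-2.18) and the glutamate transporter Slc1a3 (-2.15).

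**Figure D2:**
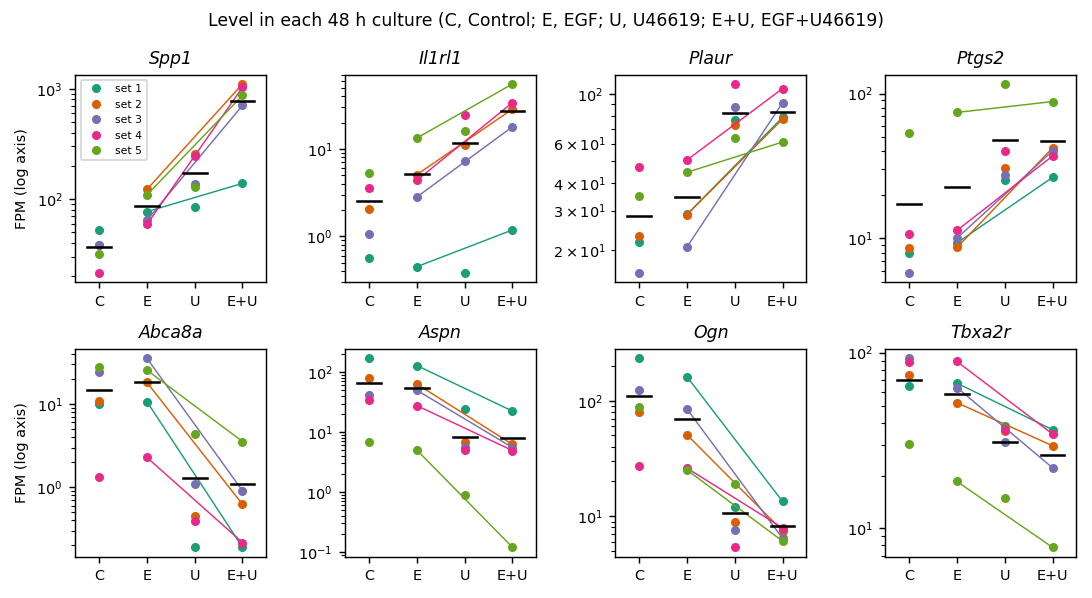
Level in FPM (log axis) of 8 genes in each 48 h culture under Control, EGF, U46619 and EGF+U46619. Coloured points are culture sets, coloured lines join the EGF and EGF+U46619 cultures of a set, and black bars are group means. Spp1 averaged 86.3 FPM under EGF and 769 FPM under EGF+U46619, with set 1 apart from the others.

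The promoters of these genes were searched for 3 motifs, since AP-1 and TEAD are nuclear endpoints of ERK and YAP signalling. The windows held 250 bases before and 50 after a RefSeq gene start (build GRCm38.p6), and matches on either strand were counted. TGANTCA, the AP-1 site, was present in 7.81% of all 32851 windows, GGAATG, the TEAD site, in 14.7%, and the CArG box of serum response factor in 1.63%. Of the 15 genes with the largest rises, 9 had an entry, with 11 windows in all. Of these windows, 2 (Havcr2 and Prl2c3) held the AP-1 site and 2 (C4bp and Il1rl1) the TEAD site. Of the 15 largest falls, 13 windows could be read, and 6 (Abca8a, Cxcl13, Id4, Ogn, Scn7a and Sult1a1) held the TEAD site and 0 the AP-1 site. Over all DEG the shares were close to those of the genes tested: the TEAD site was in 11.9% of windows of genes that rose, 14.9% of those that fell and 12.5% of all tested, and the AP-1 site in 6.1%, 7.08% and 5.66%. The CArG box was in 1.65%, 1.3% and 1.34%. A match is only a run of letters and was not tested as a site. Shown 5′ to 3′ on the gene's strand, with the match in capitals, are the windows of the gene that fell most and of a proteoglycan, each with GGAATG, followed by those of 2 genes that rose and held TGANTCA, Havcr2 and Plaur, the urokinase receptor. They lie on chromosome 11 (Abca8a, chr11:110095888-110096187, minus strand), chromosome 13 (Ogn, chr13:49607765-49608064, plus strand), chromosome 11 (Havcr2, chr11:46454681-46454980, plus strand) and chromosome 7 (Plaur, chr7:24462233-24462532, plus strand).
Abca8a: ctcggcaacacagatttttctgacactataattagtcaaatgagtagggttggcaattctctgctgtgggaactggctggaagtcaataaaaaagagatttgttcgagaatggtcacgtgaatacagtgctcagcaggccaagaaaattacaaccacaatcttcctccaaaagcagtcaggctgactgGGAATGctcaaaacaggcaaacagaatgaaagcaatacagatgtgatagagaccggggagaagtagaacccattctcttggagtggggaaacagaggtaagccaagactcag
Ogn: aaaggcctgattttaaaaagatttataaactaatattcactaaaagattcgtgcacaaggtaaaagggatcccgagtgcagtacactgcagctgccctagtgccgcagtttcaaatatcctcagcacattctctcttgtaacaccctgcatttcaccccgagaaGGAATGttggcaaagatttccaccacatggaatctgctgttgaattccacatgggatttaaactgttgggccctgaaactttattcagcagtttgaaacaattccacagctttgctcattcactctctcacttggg
Havcr2: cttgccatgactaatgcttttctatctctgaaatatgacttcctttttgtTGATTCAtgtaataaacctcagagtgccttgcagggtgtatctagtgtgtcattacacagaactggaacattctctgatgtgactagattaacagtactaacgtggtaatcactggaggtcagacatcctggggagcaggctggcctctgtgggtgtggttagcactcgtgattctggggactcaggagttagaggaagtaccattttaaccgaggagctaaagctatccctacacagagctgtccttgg
Plaur: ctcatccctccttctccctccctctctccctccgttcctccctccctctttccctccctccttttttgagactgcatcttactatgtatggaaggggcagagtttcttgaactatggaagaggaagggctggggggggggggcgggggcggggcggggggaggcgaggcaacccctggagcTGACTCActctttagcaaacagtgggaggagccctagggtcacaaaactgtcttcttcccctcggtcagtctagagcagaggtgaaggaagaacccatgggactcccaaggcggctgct

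The receptor of U46619 itself was lower in its presence. Tbxa2r (chr10:81328731-81335172) was at 67.1, 51.9, 63.3, 89.1 and 18.5 FPM in EGF sets 1 to 5 and at 36.5, 29.5, 22.1, 34.4 and 7.81 FPM under EGF+U46619. It fell in every set, and the groups overlapped only through set 5, which was lowest in both (log2FC -1.15 ± 0.15, edgeR adjusted p = 8.45e-05). Of 17 prostanoid enzymes and receptors tested, 3 rose and 3 fell. The enzymes that feed the pathway rose: beside Ptgs2, these were Ptgs1, the constitutive cyclooxygenase (0.62 ± 0.15, not called without set 2, 0.51, or set 3, 0.60), and the phospholipase Pla2g4a. Beside Tbxa2r, the prostacyclin receptor Ptgir (-0.84 ± 0.20, not called without set 3, -0.78) and the prostaglandin E2 receptor Ptger4 (-0.64 ± 0.19, not called without set 1, 2, 3 or 5, -0.68 to -0.51) fell. Prostacyclin synthase, Ptgis, was at 199 ± 201 and 229.7 ± 219.7 FPM and did not pass (log2FC 0.19 ± 0.12).

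Egfr, the receptor of EGF, did not pass: it was at 47.8, 121, 79.5, 46.4 and 125 FPM under EGF and 31.5, 68.1, 99.2, 66.6 and 168.3 FPM under EGF+U46619, lower in sets 1 and 2 and higher in sets 3 to 5 (log2FC -0.01 ± 0.21, edgeR adjusted p = 0.986). The fitted value was 0.13 without set 1 and 0.18 without set 2. Of 10 EGFR-family ligands and receptors tested, 0 rose and 3 fell, namely the ligands Tgfa (-0.44; not called without set 2, 3, 4 or 5, -0.48 to -0.36) and Nrg1 (-0.43; not called without set 2, 3, 4 or 5, -0.44 to -0.36) and the receptor Erbb2 (-0.24; not called without set 1, 2, 3, 4 or 5, -0.28 to -0.22). These were small changes, and 0 of the 3 were called without sets 2 and 5. Hbegf, the heparin-binding ligand, did not pass (log2FC 0.33 ± 0.12, edgeR adjusted p = 0.0765; called without set 5, 0.45). Agtr1a, the angiotensin II receptor, was below 2 FPM in all 10 cultures.

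Feedback inhibitors of EGFR and ERK limit the signal that EGF starts. Of 20 genes tested from a list of such inhibitors and related ERK response genes, 10 rose and 2 fell, against 13.8% of all genes in either direction. Errfi1, which binds and inhibits EGFR, was at 33.4, 88.7, 38.05, 44.4 and 103 FPM under EGF and 36.8, 241, 131, 103 and 195 FPM under EGF+U46619, with almost no rise in set 1 (log2FC 1.15 ± 0.21, edgeR adjusted p = 0.00111). The MAP kinase phosphatase Dusp10 (0.99 ± 0.13), Ier3 (0.71 ± 0.16), whose groups did not overlap, and Spred3 (0.66 ± 0.10) rose as well. Spry1, a Sprouty inhibitor of receptor tyrosine kinase signalling, went the other way, from 131, 62.2, 64.5, 49.3 and 28.1 to 43.3, 19.97, 14.02, 11.8 and 10.6 FPM over sets 1 to 5 (log2FC -1.79 ± 0.21, edgeR adjusted p = 4.1e-05), and Spry4 fell too (-0.58 ± 0.12). Without sets 2 and 5 the list gave 11 rises and 1 fall, Spry4 being the one lost. Dusp6, a direct ERK target, did not pass (-0.08 ± 0.11).

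Of 12 AP-1 and EGR factors tested, 5 rose and 0 fell. Fosl1, the AP-1 subunit Fra-1, was at 4.21, 11.9, 6.06, 11.7 and 10.9 FPM under EGF and 9.87, 19.6, 21.7, 24.7 and 15.4 FPM under EGF+U46619, and each set rose (log2FC 1.06 ± 0.22, edgeR adjusted p = 0.0037). Atf3 (0.79 ± 0.14), Maff (0.48 ± 0.15; not called without set 1, 2 or 3, 0.36 to 0.44), Fosl2 (0.43 ± 0.11; not called without set 1, 3 or 4, 0.36 to 0.43) and Jun (0.40 ± 0.11; not called without set 3, 0.29, or set 4, 0.34) were the other 4. Egr1 did not pass (-0.10 ± 0.24). Among 13 Krüppel-like factors, Klf15 (-0.59 ± 0.14, not called without set 1, -0.47, or set 4, -0.53) and Klf2 (-0.49 ± 0.11) fell, a share (15.4%) near the 13.8% of all genes. Rgs16, which switches off Gq and Gi signalling, rose (0.98 ± 0.19, edgeR adjusted p = 0.00229). It was the only member of 12 RGS genes tested that passed (8.33%, below the 13.8% of all genes). Rgs5 was at 78.8, 20.9, 56.9, 26.6 and 19.7 FPM under EGF and 22.9, 4.91, 14.3, 6.44 and 38.5 FPM under EGF+U46619, lower in sets 1 to 4 and higher in set 5, and did not pass with all sets (log2FC -1.16 ± 0.50; called without set 5, -1.96). Of 25 genes listed as targets of YAP and TEAD, 5 rose and 1 fell: Ankrd1, a stress-induced ankyrin repeat protein of muscle, was at 50.4, 91.5, 73.99, 202 and 8.71 and 109, 239, 302, 280.4 and 13.98 FPM (1.18 ± 0.23) and the receptor kinase Axl rose by 0.50 ± 0.11, whereas the matricellular Ccn1 (0.17 ± 0.20) and Ccn2 (0.41 ± 0.22), for which the list is best known, did not pass.

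Extracellular matrix genes fell in several lists. Of 11 small leucine-rich proteoglycans tested, which organise collagen fibrils, 8 fell and 0 rose: Lum, Aspn, Ogn, Omd, Fmod, Ecm2, Dcn and Prelp. Their median log2FC was -1.70, against 0.00141 for all genes. Of 20 fibrillar and associated collagens, 9 fell and 0 rose, with a median of -0.65. Col6a2, a chain of the microfibrillar collagen VI, was at 1289.8, 941, 595, 408 and 632 FPM under EGF and 311, 132, 158.3, 143 and 367 FPM under EGF+U46619 without overlap (log2FC -1.79 ± 0.26, edgeR adjusted p = 0.000219). The partner chain Col6a1 (-1.91 ± 0.26) and Col3a1, a chain of fibrillar collagen III (-1.39 ± 0.26), fell too, the latter in 4 of 5 sets. Col1a1, the main fibrillar collagen chain, was at 5942, 8781, 2440.0, 3125 and 2188 and 4812, 4300.1, 2141, 2198 and 2196 FPM and did not pass (log2FC -0.40 ± 0.17, edgeR adjusted p = 0.124), and neither did Col5a1 (-0.42 ± 0.16; called without set 3, -0.51).

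Of 19 elastic fibre genes, 7 fell and 1 rose. Eln, which encodes elastin, was at 267, 22.4, 69.2, 55.1 and 1.70 FPM under EGF and 209, 3.31, 8.87, 10.9 and 0.837 FPM under EGF+U46619, with little change in set 1, where it was highest (log2FC -1.88 ± 0.42). Its call was lost without set 3 (-1.55) and without sets 2 and 5. Mfap2 (-1.28 ± 0.21) and Ltbp4 (-0.81 ± 0.16), proteins of the microfibrils around elastin, fell, whereas the microfibril gene Fbn1 (-0.30 ± 0.15) and the cross-linking enzyme Lox (0.26 ± 0.19) did not pass. Of 17 basement membrane genes 1 fell, the laminin chain Lama2 (-0.53 ± 0.16; not called without set 1, 2, 3 or 4, -0.60 to -0.39), and Col4a1 did not pass (-0.14 ± 0.11). Among 23 matrix proteases and inhibitors 7 fell, among them the procollagen peptidase Adamts2 (-0.86 ± 0.11) and the gelatinase Mmp2 (-0.78 ± 0.10), and Adamts6 rose (0.91 ± 0.22). Timp2 did not pass (-0.12 ± 0.10).

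Provisional matrix and matricellular genes went both ways, with 4 of 21 higher and 7 lower. Thbs1, the antiangiogenic thrombospondin-1, was at 3863, 1362, 2871, 3893 and 2013 FPM under EGF and 10419, 3056, 7074, 6954 and 2491 FPM under EGF+U46619, the highest FPM, which is not scaled to gene length, among the genes that rose (log2FC 1.07 ± 0.23, edgeR adjusted p = 0.00375). It was not called without set 1 (0.96) or set 2 (1.03). Spp1, Tnc and Cd44 rose as well, whereas Fbln7 (-1.99 ± 0.24), Sparcl1 (-1.46 ± 0.30), Ccn3 (-1.40 ± 0.19), Postn, Smoc1, Thbs3 and Sparc fell. Fn1, fibronectin, did not pass (0.14 ± 0.16). Of 17 genes of fibrinolysis and coagulation 3 rose and 4 fell: Plaur was at 28.9, 28.8, 20.6, 50.6 and 44.6 FPM under EGF and 78.6, 77.2, 91.4, 106 and 60.95 FPM under EGF+U46619, without overlap (log2FC 1.31 ± 0.19, edgeR adjusted p = 0.000246), and its ligand, the urokinase gene Plau, fell (-0.50 ± 0.11; not called without set 3, -0.43). In sets 1, 3 and 4 alone, 2 rose and 2 fell. Tissue plasminogen activator, Plat, did not pass (-0.20 ± 0.09). Integrin subunits gave 3 rises and 1 fall among 16, with the laminin receptor Itga7 higher (0.93 ± 0.21) and the collagen receptor Itga1 lower (-1.23 ± 0.18), and the fibronectin receptor Itga5 did not pass (0.40 ± 0.17).

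Contractile genes were lower where they changed: of 23 genes of the contractile apparatus and targets of serum response factor, 7 fell and 0 rose (median log2FC -0.30). Mylk, the myosin light chain kinase that starts contraction, was at 103, 14.6, 128, 109.6 and 12.3 FPM under EGF and 36.5, 5.22, 64.8, 48.6 and 9.04 FPM under EGF+U46619 and was lower in each set (log2FC -1.14 ± 0.22, edgeR adjusted p = 0.00231). Synpo2 (-0.97 ± 0.14) and Csrp1 (-0.42 ± 0.10) fell in all sets too. Myh11 was at 25.2, 3.62, 157.8, 123 and 0.478 FPM with U46619 and fell by a less stable amount (-0.67 ± 0.19; not called without set 1, 2 or 4, -0.70 to -0.51). Acta2 was lower in sets 4 and 5 and higher in sets 1 to 3 (log2FC -0.19 ± 0.21, edgeR adjusted p = 0.605), and Lmod1 (-0.32 ± 0.17) and Myl9 (-0.33 ± 0.16) did not pass. Without sets 2 and 5, 5 contractile genes fell and 0 rose. Of 7 smooth muscle markers tested 4 fell, Synpo2, Myh11, Des (not called without set 1, 3 or 4, -0.43 to -0.35) and Smtn (not called without set 4, -0.29; 2 of the 4 without sets 2 and 5), and their summed level, made up mostly of Acta2, was 787 to 7142 FPM (median 2982) under EGF and 423 to 4456 FPM (median 3155) under EGF+U46619, higher with U46619 in sets 1 to 3 and lower in sets 4 and 5.

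Receptors for other vasoactive mediators fell more than they rose, 8 against 2 of 33. The adrenergic receptors Adra1b (-1.03 ± 0.19) and Adra1d (-0.60 ± 0.11) fell in all sets, and Adora2b, the adenosine A2B receptor, was at 3.97, 40.3, 11.6, 10.6 and 9.11 and 7.83, 55.8, 23.4, 30.1 and 22.7 FPM and rose (1.06 ± 0.15). Without sets 2 and 5 the list held 5 falls and 2 rises. In cyclic nucleotide signalling (21 tested), the cGMP-specific phosphodiesterase Pde5a (-0.79 ± 0.14) and cGMP-dependent protein kinase I, Prkg1 (-0.65 ± 0.15), fell, while the type II kinase Prkg2 (0.84 ± 0.17) and the phosphodiesterases Pde8b (0.70 ± 0.15) and Pde1b (0.49 ± 0.14; not called without set 1, 2 or 4, 0.38 to 0.51) rose. Of 22 genes of calcium handling, the plasma membrane calcium pump Atp2b4 (-1.15 ± 0.19), Stim1 (-0.38 ± 0.09) and the T-type channel Cacna1g (-0.88 ± 0.24; not called without set 2, -0.72, or set 4, -0.84, nor without sets 2 and 5) fell, and the inositol trisphosphate receptor Itpr3 rose (0.53 ± 0.12), 18.2% of the list in all and near the share of all genes.

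**Figure D3:**
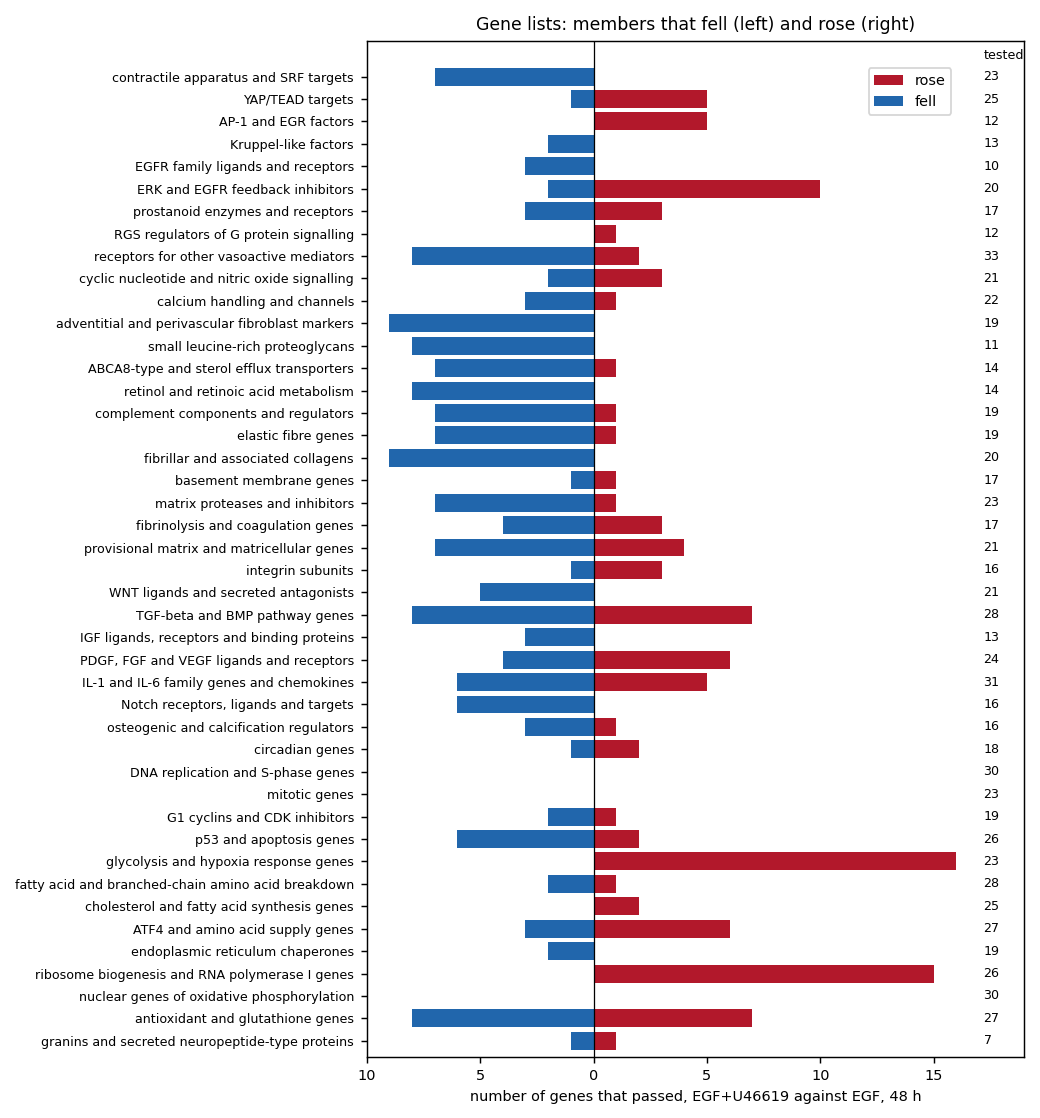
Number of genes in each of 44 functional lists that rose (red, to the right) or fell (blue, to the left) when U46619 was added to EGF for 48 h, with the number tested at the right. The longest bars are those of glycolysis and hypoxia response genes (16 of 23 rose) and of ribosome biogenesis (15 of 26 rose), and replication, mitotic and oxidative phosphorylation genes have no bar.

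Genes typical of adventitial and perivascular fibroblasts were lower. Of 19 tested, 9 fell and 0 rose (median log2FC -0.44). Tnxb, which encodes the matrix protein tenascin-X, was at 48.9, 146, 160.4, 61.7 and 107 FPM under EGF and 9.49, 10.5, 37.03, 23.8 and 77.05 FPM under EGF+U46619 (log2FC -1.92 ± 0.36, edgeR adjusted p = 0.00141). Pi16, a marker of fibroblast progenitors (-1.65 ± 0.24) and the ectonucleotidase Entpd2 (-1.67 ± 0.25) fell as well. Scara5 was at 18.2, 31.2, 21.2, 8.51 and 45.6 and 0.854, 2.45, 2.88, 0.898 and 55.6 FPM, far lower with U46619 in sets 1 to 4 and higher in set 5 (-2.33 ± 0.53; not called without set 3, -2.18). Of a list of 8 fibroblast markers, 5 of 7 tested fell, and their summed level ran from 683 to 1724 FPM (median 1284) under EGF and from 569 to 1552 FPM (median 899) under EGF+U46619. In such cultures fewer cells of a type and less RNA per cell cannot be told apart, and the part of this marker level in the falls of matrix, complement and fibroblast genes was not tested. The summed level of the 8 endothelial markers tested was 14.4 to 1308 FPM under EGF and 10.9 to 1171 FPM under EGF+U46619, with Pecam1 the only one called (-0.35 ± 0.10; not called without set 2, 3 or 4, -0.32 to -0.30). This share (12.5%) was near the 13.8% of all genes. The fitted change was nevertheless positive in 0 of the 8 (median log2FC -0.31, against 0.00141 for all genes). Of the 8, 2 passed in DESeq2 alone and 5 had an unadjusted edgeR p under 0.05. In set 5 Tie1 was at 0 FPM under EGF and Emcn at 0 FPM under EGF+U46619. Of 11 macrophage markers 4 passed the low-count filter, with Lyz2 lower (-0.93 ± 0.12) and Csf1r higher (0.65 ± 0.14; not called without sets 2 and 5), and S100b, the marker of Schwann cells and adipocytes, fell without overlap from 27.1, 8.35, 19.5, 23.7 and 11.4 to 7.64, 4.399, 6.44, 8.08 and 6.65 FPM (-1.35 ± 0.14). Adipoq, the adipocyte hormone adiponectin, was below 8 FPM in all cultures and below 1 FPM with U46619. By the calls of edgeR and DESeq2 together, 0 of 4 epithelial markers passed (0 in DESeq2 alone, 1 at an unadjusted edgeR p under 0.05) and 0 of 5 adipocyte markers (2 and 3).

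Of 19 complement genes listed and tested, 7 fell and 1, Masp1, rose. The complement regulator C4bp, among the largest rises (log2FC 2.30), was not a member of this list. C1ra, a protease of the C1 complex, was at 249, 256, 339, 134 and 319 FPM under EGF and 60.3, 62.7, 137, 74.7 and 215 FPM under EGF+U46619, with all sets lower (log2FC -1.36 ± 0.22, edgeR adjusted p = 0.000511). C1s1 (-1.27 ± 0.24), C4b (-1.14 ± 0.23) and the C1 inhibitor Serping1 (-1.08 ± 0.24) fell too. C3, the central component, fell less stably (-1.23 ± 0.35; not called without set 1, 3 or 4, -1.33 to -1.13). Of 31 interleukin family genes and chemokines, 5 rose and 6 fell. Il6 was at 1.90, 5.33, 7.01, 2.86 and 15.01 FPM under EGF and 5.03, 20.3, 17.02, 5.45 and 28.2 FPM under EGF+U46619 and rose in each set (1.31 ± 0.18, edgeR adjusted p = 0.000116). The related Clcf1 and Lif and the macrophage growth factor Csf1 were the other rises beside Il1rl1. The chemokines Cxcl13 and Cx3cl1 (-1.11 ± 0.18) fell, as did Cxcl10 (-1.29 ± 0.15; not called without set 5, -1.14).

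Of 14 transporters of the ABCA8 type and genes of sterol efflux, 7 fell and 1 rose. Apoe, the lipid carrier apolipoprotein E, was at 1419, 129, 1045, 554 and 518 FPM under EGF and 695, 45.9, 301, 227 and 151.8 FPM under EGF+U46619 and fell in all sets (-1.45 ± 0.18, edgeR adjusted p = 5.42e-05). Apod (-2.01 ± 0.25), whose groups did not overlap, Abca9 and Abca8b (-1.23 ± 0.23) fell as well, whereas Abca1, the main cholesterol exporter, was the single rise. In retinol and retinoic acid metabolism 8 of 14 fell and 0 rose, with the retinol dehydrogenase Adh1 (-1.96 ± 0.30), Rarres2, the chemerin gene (-1.67 ± 0.26), and the retinal dehydrogenase Aldh1a3 (-1.61 ± 0.27) the lowest. With sets 2 and 5 left out 5 retinoid genes fell.

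Notch genes were lower where they changed: 6 of 16 receptors, ligands and targets fell and 0 rose (8 and 0 without sets 2 and 5), with a median log2FC of -0.72. Notch3, the main Notch receptor of arterial smooth muscle, was at 239, 75.7, 108, 50.1 and 43.8 FPM under EGF and 144, 26.4, 35.2, 31.2 and 39.96 FPM under EGF+U46619 (-0.95 ± 0.19, edgeR adjusted p = 0.0022). The ligand Jag1 (-1.18 ± 0.20), the target Hes1 (-0.73 ± 0.16) and the noncanonical ligand Dlk1 (-2.01 ± 0.25) fell in all sets, and Notch2 did not pass (0.13 ± 0.12). Of 21 WNT ligands and secreted regulators 5 fell and 0 rose, led by Rspo2, an enhancer of WNT signalling, which went from 147.7, 21.2, 76.8, 52.4 and 32.04 to 37.9, 6.58, 20.997, 13.8 and 10.5 FPM (-1.83 ± 0.15, edgeR adjusted p = 3.96e-06). The secreted antagonist Dkk3 fell as well (-0.53 ± 0.10) and the ligand Wnt5a did not pass (-0.14 ± 0.07).

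In the TGF-beta and BMP pathways 7 of 28 genes rose and 8 fell. The secreted BMP antagonist Grem1 rose (0.86 ± 0.21; not called without set 4, 0.58), and so did the activin subunits Inhba and Inhbb. The activin antagonist Fst fell from 109, 63.6, 78.5, 56.5 and 72.8 to 48.1, 30.2, 41.8, 36.4 and 44.4 FPM without overlap (-0.90 ± 0.10, edgeR adjusted p = 2.26e-05), and the BMP targets Id1, Id2 and Id4 and the ligands Bmp4 and Bmp6 fell, Id2 not when sets 2 and 5 were left out. Without sets 2 and 5 the list gave 5 rises and 3 falls. Of 13 genes of the IGF system Igf1 (-0.92 ± 0.22), Igfbp4 (-0.93 ± 0.20) and Igfbp6 (-0.67 ± 0.12) fell and 0 rose, and Igf1 was not called without sets 2 and 5. Among 24 PDGF, FGF and VEGF ligands and receptors 6 rose, including Vegfa and Fgf2 (0.52 ± 0.17; not called without set 1, 2, 3 or 4, 0.42 to 0.54), and 4 fell, including Pdgfrb, the PDGF receptor of mural cells (-0.49 ± 0.12). Osteogenic regulators gave 1 rise, Runx1 (0.72 ± 0.16), and 3 falls, among them Sox9 (-0.60 ± 0.14; not called without set 3, -0.56), of 16 tested, and 1 and 1 without sets 2 and 5.

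Glycolysis and hypoxia response genes rose in large part: 16 of 23 were higher and 0 lower, with a median log2FC of 0.50. Hk2, the hexokinase that commits glucose to glycolysis, was at 33.4, 38.3, 27.6, 40.1 and 33.3 FPM under EGF and 85.02, 74.4, 72.2, 67.5 and 50.9 FPM under EGF+U46619, and Slc2a1, the glucose transporter GLUT1, at 69.9, 89.3, 58.6, 76.5 and 87.6 and 119, 192, 143, 137 and 112 FPM. In neither gene did the groups overlap (log2FC 1.02 ± 0.13 and 0.87 ± 0.11, edgeR adjusted p = 0.000102 and 7.52e-05). The lactate exporter Slc16a3 (1.12 ± 0.20) and the hypoxia-induced mitophagy gene Bnip3 (0.96 ± 0.15) rose in all sets, together with Ldha, Pdk1, Pfkl, Gapdh and Eno1. Several of these enzymes have processed pseudogenes that share their reads. When sets 2 and 5 were left out, 15 rose and 1 fell. Nuclear genes of oxidative phosphorylation gave 0 calls of 30 tested in the overlap of edgeR and DESeq2 (1 in DESeq2 alone, and 4 at an unadjusted edgeR p under 0.05), with Ndufs1 at 0.15 ± 0.05 (called without set 5, 0.18).

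Of 26 genes of ribosome biogenesis and RNA polymerase I 15 rose and 0 fell, and the fitted change was positive in all 26 (median 0.30). Ddx21, an RNA helicase of the nucleolus, was at 90.3, 123, 124, 135 and 185.3 FPM under EGF and 134, 182.3, 199.7, 183.1 and 239 FPM under EGF+U46619 (0.53 ± 0.09, edgeR adjusted p = 0.000641). Polr1a, the large subunit of RNA polymerase I, rose by 0.35 ± 0.08 and Myc, which drives this programme, by 0.68 ± 0.13. The changes of single genes were small but in the same direction in all 5 sets for Ddx21, Ncl, Tsr1, Polr1a and Npm1, of which Ncl (not called without set 3, 0.37) and Npm1 (not called without set 2, 3 or 4, 0.25 to 0.36) depended on single sets for their calls. Among 27 ATF4 targets and genes of amino acid supply 6 rose, with the cystine importer Slc7a11 (0.71 ± 0.13), and 3 fell, with the glutamine importer Slc1a5 (-0.59 ± 0.09). The list rested on few stable calls, with 1 rise and 2 falls without sets 2 and 5, and Asns did not pass with all sets (0.25 ± 0.13; called without set 4, 0.41). Of 25 genes of cholesterol and fatty acid synthesis, Fasn rose (0.55 ± 0.11) and so did Acaca (0.29 ± 0.10; not called without set 1, 2 or 3, 0.22 to 0.28, nor without sets 2 and 5), which is 8% of the list against 13.8% of all genes. Breakdown of fatty acids and branched-chain amino acids (1 rise and 2 falls of 28), endoplasmic reticulum chaperones (0 rises and 2 falls of 19) and circadian genes (2 rises and 1 fall of 18) had shares of calls of 10.7%, 10.5% and 16.7%, near that of all genes (0 and 0, 0 and 0, and 2 and 2 without sets 2 and 5), with Cpt1a at 0.11 ± 0.10 and Dbp at -0.23 ± 0.12.

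Antioxidant and glutathione genes went both ways, with 7 of 27 higher and 8 lower. Hmox1, which degrades haem, was at 136, 313, 269, 436 and 221 FPM under EGF and 356, 616, 865, 1221 and 405 FPM under EGF+U46619 and rose in each set (1.30 ± 0.16, edgeR adjusted p = 4.97e-05). The other genes that rose were Txnrd1, Srxn1, Gclm, Pgd, Gsr and Nfe2l2, the factor NRF2. The glutathione transferases Gstm1 (-1.20 ± 0.12) and Gstt1 (-1.51 ± 0.20), the plasma glutathione peroxidase Gpx3 (-1.37 ± 0.15) and the extracellular superoxide dismutase Sod3 (-0.89 ± 0.14) fell. For Gstm1 the levels were 197, 234, 361, 327 and 291 and 78.7, 98.3, 116, 156.9 and 176.2 FPM, and neither Gstm1 nor Sod3 overlapped between the groups. Gstm1 and Gstm2 are related members of the same family, and whether they share reads was not tested. Of 7 granins and secreted neuropeptide-type proteins, Vgf rose and Adm, adrenomedullin, fell (-0.65 ± 0.19; not called without set 1, 2 or 4, -0.68 to -0.49), and Scg2 was below the 5 FPM limit, at 1.41, 1.07, 13.6, 2.57 and 2.53 and 0.19, 0.35, 3.34, 0.929 and 1.08 FPM (-1.81 ± 0.30; edgeR adjusted p = 0.000636; called without set 2, -1.86).

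No DNA replication or mitotic gene passed. Of 30 replication and S-phase genes 0 were called in the overlap of edgeR and DESeq2 (0 by DESeq2 alone, 1 at an unadjusted edgeR p under 0.05), and of 23 mitotic genes 0 (0 and 0). Mcm2, of the replicative helicase, was at 61.7, 51.2, 62.4, 69.98 and 77.5 FPM under EGF and 47.99, 43.5, 66.6, 79.96 and 73.5 FPM under EGF+U46619 (log2FC -0.07 ± 0.12), and Pcna, the polymerase clamp, at 0.03 ± 0.10. Top2a, expressed in cycling cells, was lower in sets 1 and 2 and higher in sets 3 to 5 (0.07 ± 0.20; -0.05 without set 3 and -0.01 without set 4). Among 19 G1 cyclins, CDK inhibitors and factors of the MYC network, Myc rose and Mxd4, an antagonist of MYC (-0.41 ± 0.08), and Ccnd3 (-0.29 ± 0.07; not called without set 1, -0.24) fell. This share (15.8%) was near the 13.8% of all genes. Cdkn1a (-0.05 ± 0.08), Cdkn2a (-0.23 ± 0.11) and Ccnd1 (-0.30 ± 0.10; called without set 5, -0.33) did not pass with all sets. Of 26 p53 and apoptosis genes 2 rose and 6 fell, including the antiapoptotic Bcl2 (-0.59 ± 0.11) and Sesn1, whose groups did not overlap (-0.77 ± 0.12), and Trp53 did not pass (0.13 ± 0.07). With sets 1, 3 and 4 alone it was 2 rises and 3 falls.

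Among the DEG with the highest FPM, Fth1, the heavy chain of the iron store ferritin, fell from 2671, 5151, 4933, 4797 and 3596 to 1647, 3637, 2689.8, 2760.3 and 2877 FPM (-0.64 ± 0.10, edgeR adjusted p = 0.000278) and so did Gsn, the actin-severing gelsolin (-0.70 ± 0.12). Sparc (-0.33 ± 0.09; not called without set 3, -0.33, or set 4, -0.28) and Col1a2 (-0.39 ± 0.12; not called without set 1, 2, 3 or 4, -0.43 to -0.30) fell by less. On the side of the rises, Hsp90ab1, a cytosolic chaperone (0.32 ± 0.09; not called without set 1, 2, 3 or 4, 0.25 to 0.34), and the processed pseudogenes Gm7336 (0.61 ± 0.12) and Gm6560 (0.70 ± 0.12) were, with Thbs1, among the 5 most abundant, and the reads of the pseudogenes cannot be told apart from those of their parent genes.

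Whether the effect of U46619 depended on EGF was asked by setting the step from EGF to EGF+U46619 against the step from Control to U46619 in the same sets. Without EGF, U46619 changed 3111 genes (21.3%), and 1602 were shared, which is 79.3% of the 2019 and 51.5% of the 3111, with 1602 in the same direction. The test of the difference between the steps called 0 genes in edgeR, in DESeq2 and in their overlap (364 with an unadjusted p below 0.05 by edgeR and DESeq2 alike, and 2.95% of all genes by edgeR). For the 417 genes that passed only with EGF present, a difference between the steps was thus not shown. Over the 2019 DEG the standard error of that difference had a median of 0.149 on the log2 scale. For Spry4, which was among these DEG, and for Fgd6, which was not, a difference several times that size was not called. Spp1 was not called either, but its own standard error, given below, was larger. The 0 calls thus do not show that the steps were alike.

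Aspn stood at a log2FC of -2.96 ± 0.19 with EGF and -3.04 ± 0.19 without it. Tbxa2r was at -1.15 ± 0.15 and -1.16 ± 0.15. In both genes the values with and without EGF lay within 1 standard error of each other. Spp1 rose by 3.07 ± 0.41 with EGF and by 2.08 ± 0.40 without it, a difference of 1.00 ± 0.54 (edgeR unadjusted p = 0.0794). Its mean was 36.4 ± 11.3 FPM in Control, 86.3 ± 27.9 under EGF, 170.6 ± 76.7 under U46619 and 769 ± 385 under EGF+U46619 (SD, n = 5). The smallest unadjusted p-values of the difference were those of Ttc25 (0.000222), Fgd6 (0.000587), Spry4 (0.000891), Gm12321 (0.00117) and Arhgap27 (0.00133), all with an edgeR adjusted p of 0.984. Spry4 was at -0.58 ± 0.12 with EGF and 0.12 ± 0.12 without. Fgd6, a guanine nucleotide exchange factor, was at 0.14 ± 0.11 with EGF and 0.82 ± 0.12 without, and Ttc25 was below 1 FPM in all 10 cultures. The lists of cholesterol and fatty acid synthesis and of mitosis, chosen here after their values were seen, stood further apart. Of 25 cholesterol and fatty acid synthesis genes, 17 rose with U46619 in the absence of EGF (median log2FC 0.56) and 2 in its presence (median 0.11), where the median of all genes was near 0 in each step. The difference between the steps was negative in all 25 (median -0.40), with an unadjusted edgeR p below 0.05 in 10 and 0 called in edgeR or DESeq2. Of 23 mitotic genes, 4 rose without EGF and 0 with it (medians 0.46 and 0.13), and 0 had an unadjusted edgeR p below 0.05 for the difference.

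**Figure D4:**
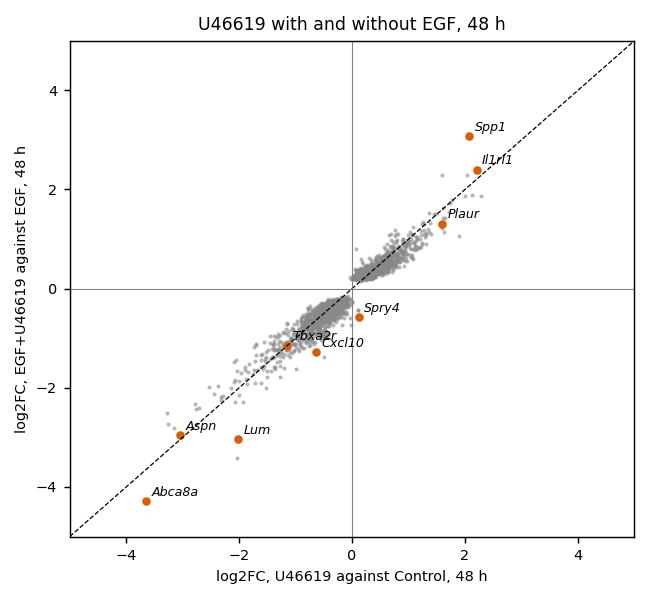
Log2 fold change of the 2019 DEG on addition of U46619 to EGF (vertical axis) against that of U46619 against Control (horizontal axis) at 48 h, each point a gene, with the line of equal change dashed. Orange points are named genes, and Spp1 lies above the line at 3.07 against 2.08.

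The same step at 24 h was measured in 12 libraries of other cultures, prepared as a separate batch, so that time and batch cannot be told apart. There U46619 changed 2470 genes of 13918 (17.7%), and 1105 of them were shared with 48 h, which is 54.7% of the 2019 and 44.7% of the 2470, with 1102 in the same direction. The test of the difference between the 48 h and 24 h steps called 0 genes in edgeR and in the overlap with DESeq2, and 26 in DESeq2 alone (1402 with an unadjusted p below 0.05 by edgeR and DESeq2 alike, and 9.63% of all genes by edgeR). The count was 16 without 24 h mouse 3 and 20 without 24 h mouse 6.

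The proteoglycan and ABCA8 falls were present at both times, with Abca8a at -4.52 ± 0.65 at 24 h, Aspn at -3.56 ± 0.40 and Ogn at -2.42 ± 0.43. Tbxa2r was also lower, at -1.19 ± 0.30 at 24 h. Ankrd1 stood at 3.31 ± 0.69 at 24 h against 1.18 ± 0.23 at 48 h. Spp1 and Star were called at 48 h only, with 24 h values of 0.68 ± 0.71 and -0.06 ± 0.30 (differences 2.37 ± 0.89 and 1.79 ± 0.48, edgeR unadjusted p = 0.0123 and 0.00068, adjusted p = 0.413 and 0.232). The contractile list went from 6 rises and 1 fall at 24 h to 0 rises and 7 falls at 48 h. Acta2 was at 1.93 ± 0.44 at 24 h (edgeR adjusted p = 0.0064) and at -0.19 ± 0.21 at 48 h, a difference of -2.13 ± 0.52 (edgeR adjusted p = 0.188), and Actg2, the enteric actin, at 2.15 ± 0.46 and -0.52 ± 0.23 (called without set 2, -0.78), a difference of -2.68 ± 0.56 (edgeR adjusted p = 0.159). Ccn2 (1.89 ± 0.52), Ccn1 (1.32 ± 0.38) and Lox (1.20 ± 0.27) also passed at 24 h and not at 48 h, with no difference called between the times. Actg2 was among the 5 smallest p-values of that difference, with the class I and class II histocompatibility genes H2.M1 and H2.DMa, the glycosyltransferase Galnt18 and the peroxisomal Phyh, and the smallest edgeR adjusted p was 0.116.

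**Figure D5:**
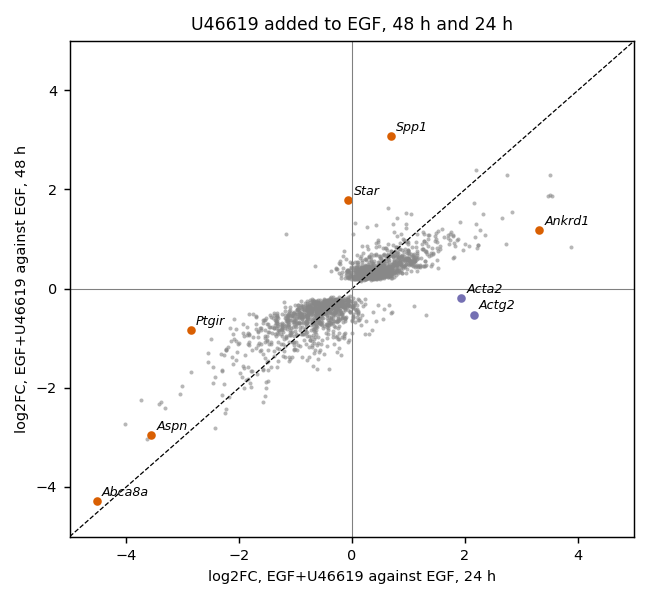
Log2 fold change of EGF+U46619 against EGF at 48 h (vertical axis) and at 24 h (horizontal axis) for the 48 h DEG tested at both times, each point a gene, with the line of equal change dashed. Orange marks named DEG and violet Acta2 and Actg2, which were not DEG at 48 h; Acta2 was at 1.93 at 24 h and -0.19 at 48 h.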

How the data were processed

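The authors sequenced poly(A) RNA as paired reads, aligned it to mm10 with HISAT2 2.1.0 and counted reads per gene with featureCounts, including multimapping reads. The deposited values are raw counts per gene; fragments per 1000000 counts (FPM) were computed from them with TMM library sizes. Genes listed at 0 on chromosomes 9, X, Y and MT (7075) were not analysed here. Counts were fitted over the 20 libraries of the 48 h batch with Control, EGF, U46619 and EGF+U46619 (19936925 to 32797224 counts) by edgeR 4.0.16 (quasi-likelihood test) and DESeq2 1.42.0, with treatment and culture set as terms, after filterByExpr. A DEG passed an adjusted p (Benjamini-Hochberg) of 0.05 in each tool and reached a group mean of 5 FPM or more under EGF or EGF+U46619. Gene types are those of the files, gene positions those of GENCODE for GRCm38 and promoters those of RefSeq GRCm38.p6.

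Numbers of the labels paired the cultures: the deviations of EGF and EGF+U46619 cultures of a set from their group means correlated at 0.698 to 0.923 in all 5 sets. The labels gave sets 1 and 4 the same mouse number, although the study's methods name a different mouse for each replicate. The correlation between those sets was -0.057 to 0.135, with a median of 0.085. Between the other sets it was -0.632 to 0.279, with a median of -0.213. Whether sets 1 and 4 come from 1 mouse was not tested. If sets 1 and 4 come from 1 mouse, the p-values are too small. No 2 libraries of the same treatment group agreed within sampling noise, and libraries of different groups were not compared in this way.

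Named were the 15 largest rises and falls that moved the same way in all sets, up to 5 DEG and 3 other members of each list, 5 genes fixed by name (Tbxa2r, Egfr, Agtr1a, Klf15, Spp1), the 5 smallest p-values of each difference test and the 5 most abundant DEG in each direction. Some of the genes so chosen are not reported here. List members printed without a value were added after the values were seen. The genes and lists were chosen with earlier results of these data known. Scripts were tested on simulated data. Alternatives left out each set, the block, the filters and either tool.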

Additional observations from a re-analysis of the deposited data

Results flagged for a closer look

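In 15 of the 251 genes named or examined, the difference between EGF+U46619 and EGF in 1 culture set lay far from those of the other 4, by Dixon's criterion at the 95% level (a gap over 0.71 of the range). Chance alone gives such a gap in about 1 gene in 20, which is near the share seen here. By set, 6 of the 15 were in set 5, 4 in set 2, 3 in set 4 and 2 in set 1, and whether this split differs from chance was not tested. All values are on the scale log2(FPM + 0.5), and their cause was not tested.

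In set 5, Rgs5 stood at 0.95 against -1.99 to -1.76 in the other sets, Scara5 at 0.28 against -3.79 to -2.68 and Rgs2, which like Rgs5 limits Gq signalling, at 0.31 against -0.95 to -0.67. Lyz2 fell least there (-0.34 against -1.08 to -0.998), and Ankrd37 (0.37 against 1.02 to 1.20) and Ndufs1 (0.0324 against 0.17 to 0.19) were the least higher. Myh11 was lowest and Krt19 highest in set 5.

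In set 2, the secreted WNT antagonist Sfrp4 (-3.67 against -1.29 to -0.64), and the collagen genes Col14a1 (-2.92 against -1.12 to -0.58) and Col4a1 (-0.40 against -0.11 to -0.04) were the lowest, and Itgb3 was at -0.028 against 0.43 to 0.56. In set 4, Nfil3 was at 0.20 against 0.78 to 0.93, Serpinh1 at -0.59 against -0.26 to -0.13 and Sparc at -0.52 against -0.31 to -0.25. In set 1, Rspo3 was at -1.16 against -0.80 to -0.73 and Fgf18 at -0.18 against -1.27 to -1.13.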

How the results depend on the processing

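The count of 2019 DEG held within a factor of 1.5 for edgeR alone (2021), DESeq2 alone (2357), no FPM minimum (2429), DESeq2 size factors (2003), no low-count filter (1710), at least 10 counts in every library (2016), limma voom (2057), only the EGF and EGF+U46619 libraries (1483), sets 1 and 4 summed (1590) and both 48 h batches by culture set (1906). Leaving out 1 set gave 1034 (without set 3) to 2114 (without set 5), and leaving out sets 2 and 5, chosen after seeing the data, 1575. Without the block on culture sets 27 genes were called, with the mouse number of the labels as the pairing 797, and with that number over both 48 h batches 699. The difference with and without EGF gave 0 calls in each alternative run. The difference between 48 h and 24 h gave 26 calls in DESeq2 alone, 20 with no low-count filter, and 0 to 20 when 1 mouse or set was left out. Of 204 named DEG, 127 were called in each of the settings run per gene other than the one without the block, 5 also in that one, and 0 reversed. Among 47 named genes that were not called, 9 were called in some setting, and values near 0 changed sign for Egfr (0.047 without the block, -0.15 to 0.18 when 1 set was left out) and, when 1 set was left out, for Arhgap27 (-0.037 to 0.083), H2.DMa (-0.093 to 0.0052) and Top2a (-0.048 to 0.18). Where a count or call changed, the cause was not tested. At 5 sets, the median standard error over the DEG was 0.105 on the log2 scale, and changes of a larger size, such as those of Hbegf and Ccnd1, did not pass with all sets.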
